A study of Mus musculus with 8 samples.

Results

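The genes described here are the machinery of DNA replication and cell division, measured in CD44+ CD4+ T cells, the helper T cells that have met antigen. They are 59 genes chosen by symbol, of 11841 symbols in the deposited table, and all 59 were found. Of these, 30 act in S phase (the helicase and its loading factors, polymerases, nucleotide supply and the cyclin E kinase activity that fires origins). Another 22 act in mitosis, and 7 are G1 regulators: D-type cyclins, their kinases and inhibitors of cyclin-dependent kinases. RNA came from cells of skin-draining lymph nodes of BALB/cAJcl mice after PMA and ionomycin had been applied for 2 h, which activates T cells without the antigen receptor. Per the labels, 4 genotypes had 2 libraries each: T-bet-/- STAT6-/- (called double-null), STAT6-/- (STAT6-null), T-bet-/- (T-bet-null) and wildtype (WT). All genotypes shared the strain, the tissue and the stimulation, so no unstimulated level is known. The labels give no sex, age or preparation batch and do not say which exons were removed. Whether both libraries of a genotype stem from different mice is not stated either, so the p-values reflect the spread between these libraries, which may be technical.

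A cell commits to division in G1, when cyclin D2 or D3 with CDK4 or CDK6 inactivates the retinoblastoma proteins and so frees E2F factors to switch on the replication genes. Origins are licensed by Cdc6 and Cdt1, which load the Mcm2 to Mcm7 ring. Cdc45 and the GINS complex then turn the ring into the active helicase, and polymerases held by the PCNA clamp copy the strands. Cyclin B with CDK1 starts mitosis, Aurora and Polo kinases build and correct the spindle, and the anaphase-promoting complex with Cdc20 ends it. The mitotic genes are held down in resting cells by the DREAM complex, which binds the CHR element. T-bet, encoded by Tbx21, directs Th1 development, and STAT6 is the transcription factor activated by IL-4 and IL-13. The signals of IL-4 include growth of T cells. In T cells a brief PMA and ionomycin stimulus is known mainly for cytokine induction. The transcripts of S phase and mitosis mark cells in cycle, and whether these cells were in cycle before the stimulus was not measured here.

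The promoters of the S-phase and mitosis genes differ in the letters they hold, and 6 are shown because each carries the letters typical of its group. The sequences are from RefSeq (assembly GRCm38.p6, the assembly of mm10), run 5′ to 3′ on the strand of the gene, and cover the 120 bases that end 1 base before the annotated start. Capitals mark E2F-type letters (TTGGCGC or TTCCCGC), the CHR (TTTGAA) and the CCAAT box, each read on both strands, so that ATTGG is a CCAAT box and TTCAAA a CHR on the other strand. The genes were chosen after the search for holding them. For S phase, Mcm6 encodes a helicase subunit, Rrm1 the large subunit of ribonucleotide reductase and Uhrf1 a factor that keeps DNA methylation through replication. For mitosis, Cdc20 activates the anaphase-promoting complex, Cdk1 is the mitotic kinase and Ube2c is the ubiquitin-conjugating enzyme of that complex. Mcm6 lies at chr1:128359706-128359825 on the minus strand, Rrm1 at chr7:102441575-102441694 on the plus strand, and Uhrf1 at chr17:56303217-56303336 on the plus strand. Cdc20 lies at chr4:118437344-118437463 on the minus strand, Cdk1 at chr10:69352913-69353032 on the minus strand, and Ube2c at chr2:164769809-164769928 on the plus strand.
Mcm6: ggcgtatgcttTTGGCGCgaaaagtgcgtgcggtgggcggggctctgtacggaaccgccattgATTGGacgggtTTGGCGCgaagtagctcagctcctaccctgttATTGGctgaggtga
Rrm1: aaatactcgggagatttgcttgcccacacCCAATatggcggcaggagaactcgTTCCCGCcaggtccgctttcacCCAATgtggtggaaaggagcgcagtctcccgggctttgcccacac
Uhrf1: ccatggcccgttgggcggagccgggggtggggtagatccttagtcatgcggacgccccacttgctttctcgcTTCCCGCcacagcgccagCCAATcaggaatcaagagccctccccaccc
Cdc20: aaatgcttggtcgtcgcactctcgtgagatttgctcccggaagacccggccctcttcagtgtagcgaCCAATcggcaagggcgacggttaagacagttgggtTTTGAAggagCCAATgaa
Cdk1: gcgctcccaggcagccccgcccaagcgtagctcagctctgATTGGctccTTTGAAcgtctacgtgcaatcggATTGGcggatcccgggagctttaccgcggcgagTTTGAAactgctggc
Ube2c: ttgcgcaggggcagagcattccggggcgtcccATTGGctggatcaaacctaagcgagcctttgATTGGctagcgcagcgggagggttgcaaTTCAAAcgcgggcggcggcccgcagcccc

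Over the window from 250 bases before to 50 after the start, 48 of the 59 genes had an entry, with 56 promoters in all. E2F-type letters stood in 16 of 30 S-phase promoters (53.3%), 3 of 17 mitosis promoters (17.6%) and 1 of 9 promoters of G1 regulators (11.1%), against 6.81% of all 32851 promoters. The CHR stood in 3 S-phase promoters and 11 mitosis promoters (64.7%), against 17.9% of all promoters. All 11 of those mitosis promoters also held a CCAAT box, and both together stood in 6.67% of S-phase promoters and 6.95% of all promoters. The CCAAT box, with or without a CHR, was in 17 S-phase promoters (56.7%), 14 mitosis promoters (82.4%) and 3 of G1 regulators (33.3%), against 37.4% of all. The reversed CCAAT box, ATTGG, can share letters with TTGGCGC. A match is a description of letters, and no binding was measured.

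**Figure D1:**
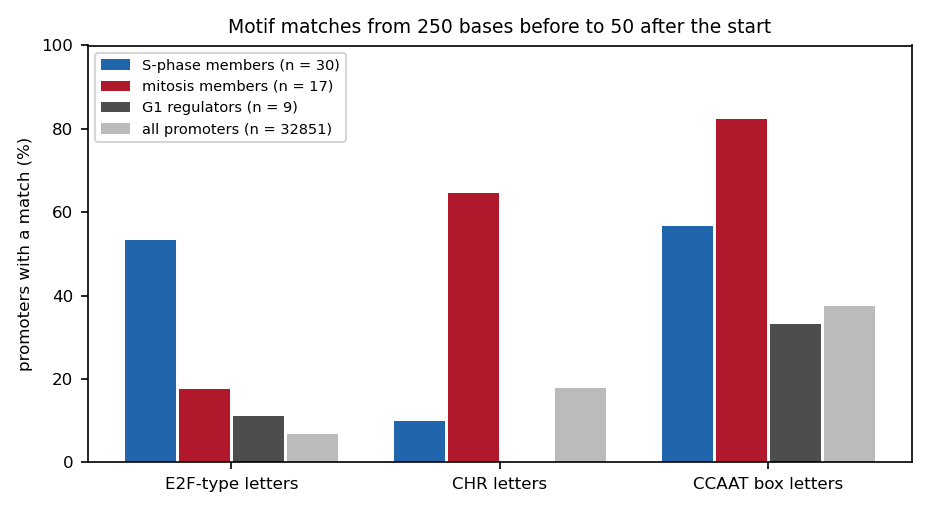
Share of promoters (percent, y axis) with at least 1 match to E2F-type, CHR or CCAAT letters (x axis) for S-phase members, mitosis members, G1 regulators and all promoters. E2F-type letters were most frequent in S-phase promoters (53.3%), while CHR letters (64.7%) and CCAAT letters (82.4%) were most frequent in mitosis promoters.

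The deposited values are FPKM, fragments per unit of transcript length and per mapped fragments of the library, and log2 values below are log2(FPKM + 1). A gene was tested if at least 2 libraries reached 1 FPKM, which held for 58 of the 59 genes and 10281 in all. Calls are at an adjusted p under 0.05 (limma, Benjamini-Hochberg over all tested genes of a comparison). The absolute depth is unknown, and relative depth read from the steps of low values differed 1.22-fold between the deepest and the shallowest library, an estimate that rests on 129 to 160 of 507 low genes per library. Tbx21 had 2.49 and 2.10 FPKM in double-null, 102 and 92.1 in STAT6-null, 1.44 and 1.54 in T-bet-null and 30.8 and 31.6 in WT libraries. Stat6 had 29.6 and 26.9 FPKM in double-null, 31.6 and 29.0 in STAT6-null, 88.8 and 89.8 in T-bet-null and 89.9 and 90.9 in WT libraries. Each targeted transcript was thus lower than in WT where the labels say, though Stat6 was reduced and not absent. WT stood apart: Pearson r was 0.9341 to 0.9536 between WT and mutant libraries, 0.9829 to 0.9888 between mutant genotypes and 0.9965 to 0.9977 within genotypes. All 9 helper T cell markers were in the table, with a summed level of 1863 to 1969 FPKM in double-null, 2143 to 2156 in STAT6-null, 1887 to 1919 in T-bet-null and 2390 to 2424 in WT libraries. Of 10 myeloid marker symbols 6 had a line (none for Csf1r, Itgam, Adgre1 and its older symbol Emr1), summing to 113 to 137 FPKM in double-null, 143 to 145 in STAT6-null, 102 to 108 in T-bet-null and 185 to 190.1 in WT libraries. Of 10 erythroid marker symbols Hba-a1 and Beta-s had a line, summing to 2.63 to 4.15, 2.65 to 6.53 and 7.36 to 7.48 FPKM in double-null, STAT6-null and T-bet-null libraries, and to 224 to 442 in WT libraries. For B cells, 5 markers had a line, with sums of 1.53 to 2.36, 2.68 to 6.52 and 1.88 to 2.13 FPKM in double-null, STAT6-null and T-bet-null libraries and 3.72 to 5.81 in WT libraries. Cd8a and all 5 NK markers had no line, and Cd8b1 lay between 3.02 and 5.60 FPKM in the 8 libraries. The part of these differences in the results below was not tested.

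The S-phase and mitosis genes were lowest in STAT6-null cells. Over the 30 S-phase genes the median was 7.37 and 7.89 FPKM in the double-null libraries, 5.02 and 5.65 in the STAT6-null, 6.93 and 6.70 in the T-bet-null and 9.98 and 8.94 in the WT libraries. Over the 22 mitosis genes it was 4.59 and 6.15 in the double-null, 2.83 and 3.14 in the STAT6-null, 4.31 and 3.83 in the T-bet-null and 5.45 and 5.04 in the WT libraries. In both groups the STAT6-null libraries were the 2 lowest, and for mitosis genes the double-null and WT libraries overlapped. Both STAT6-null libraries lay below the 6 others for 24 of 30 S-phase and 22 of 22 mitosis genes and for 0 of 7 G1 regulators, against 9.11% of all tested genes. The S-phase exceptions were Mcm4, Tyms, Cdt1, Fen1, Rfc3 and Rfc4. The genotype mean was highest in WT for 24 S-phase and 13 mitosis genes and in double-null cells for the other 6 and 9, against 41% and 25.3% of all tested genes. In bulk RNA, fewer cells in cycle and less RNA per cycling cell cannot be told apart.

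**Figure D2:**
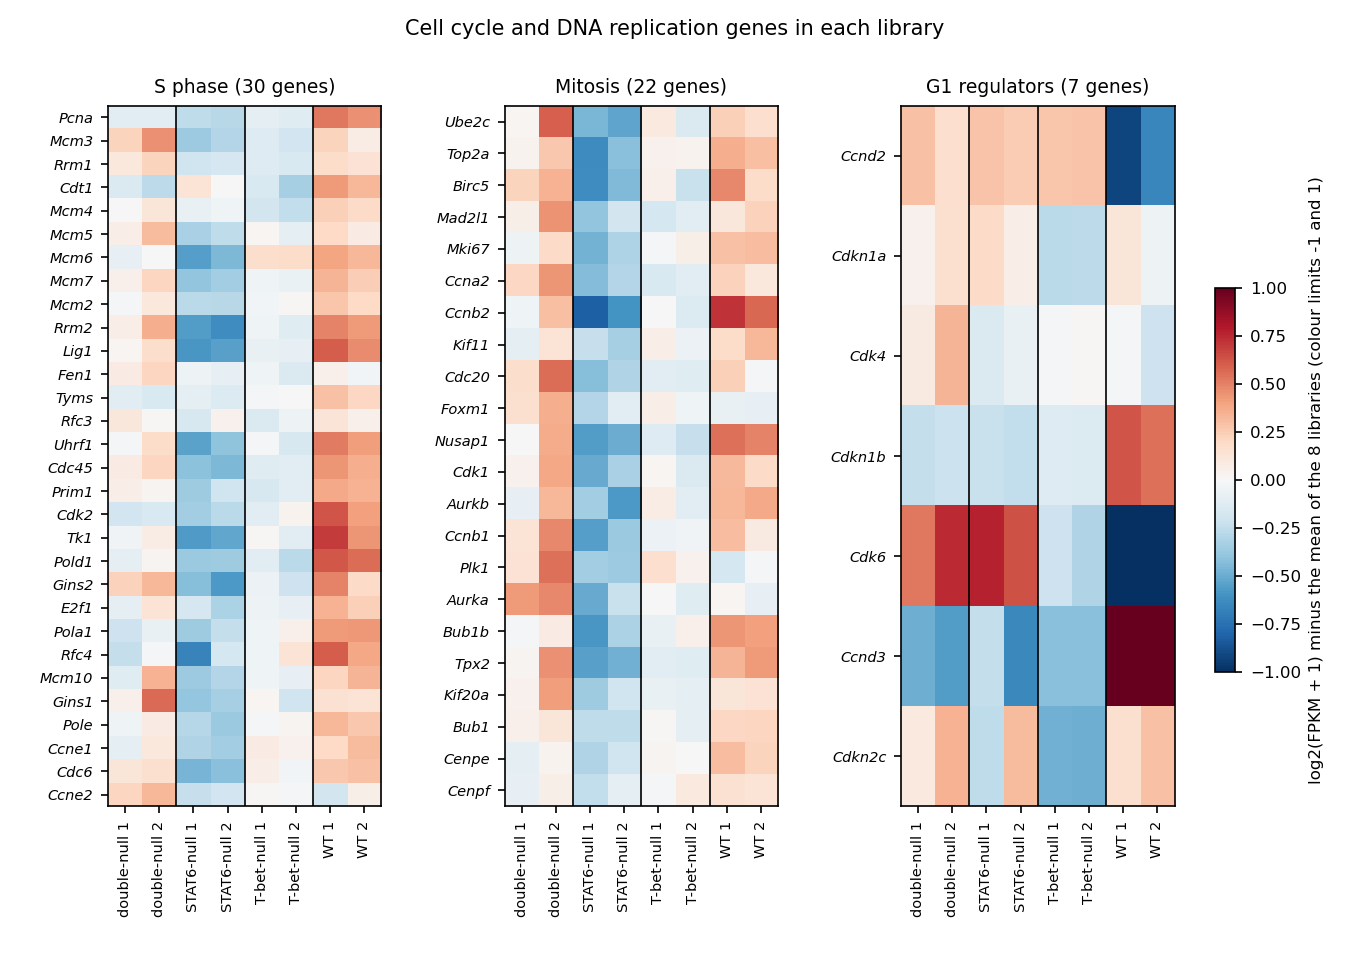
Each of the 59 genes (rows, by group and by falling mean FPKM) in each of the 8 libraries (columns), as log2(FPKM + 1) minus the gene's mean over the 8 libraries, with colours limited to -1 and 1. Both STAT6-null columns are below the 6 others for 24 of 30 S-phase and 22 of 22 mitosis genes, and for 0 of 7 G1 regulators.

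Double-null replicate 2 was higher than replicate 1 for 22 of 22 mitosis genes, by a median of 0.29 on the log2 scale, and for 25 of 30 S-phase genes, by a median of 0.13. Over all tested genes the median difference between those libraries was 0.04. Ube2c shows it most plainly among the abundant mitosis genes, with 16.3 FPKM in replicate 1 and 24.96 in replicate 2.

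How did these genes differ between STAT6-null and WT cells? In each comparison with WT, an offset of the WT libraries cannot be told apart from an effect of the lost gene. In STAT6-null cells 48 of 58 tested genes were lower than in WT and 2 were higher, against 36.1% and 34.9% of all tested genes. S-phase genes were lower in 27 of 30 cases (median log2 fold change -0.63) and mitosis genes in 19 of 21 (median -0.66), and none in either group was higher, where the median over all tested genes was -0.01. Ccnb2, which encodes the mitotic cyclin B2 (chr 9, 70407689-70421554), had 3.04 and 3.69 FPKM in STAT6-null libraries, against 10.7 and 9.55 in WT libraries. Its groups lay far apart, and it had the largest difference of the mitosis genes (log2 fold change -1.35 ± 0.12 SE, adjusted p = 1.36e-05, n = 2 per genotype). Nusap1, a spindle microtubule protein (-1.05), and Tpx2, which activates Aurora A (-0.90), followed. Among the abundant mitosis genes Birc5, which encodes survivin (-0.86), Top2a, which untangles sister DNA (-0.85), and Ube2c (-0.70) also fell.

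The largest falls of S phase in STAT6-null cells were those of Tk1, Lig1 and Rrm2. Tk1, the thymidine salvage kinase, had 3.56 and 3.72 FPKM in STAT6-null libraries, against 9.99 and 8.18 in WT libraries (-1.11 ± 0.09, adjusted p = 9.27e-06, n = 2 per genotype). Rrm2, the small subunit of ribonucleotide reductase, whose level limits nucleotide supply, had 9.87 and 9.42 FPKM in STAT6-null libraries, against 21.5 and 20.5 in WT libraries (-1.05 ± 0.09, adjusted p = 1.15e-05, n = 2 per genotype). Lig1, which joins Okazaki fragments, fell by 1.10. For these 3 genes both STAT6-null libraries lay below all 6 others. Of the helicase subunits, Mcm6 fell by 0.86 and Mcm3 by 0.48. Pcna, the most abundant S-phase gene (chr 2, 132249286-132253180), had 192 and 189 FPKM in STAT6-null libraries, against 330.3 and 314 in WT libraries (-0.76 ± 0.05). Rrm1 fell by 0.35, a smaller value than that of the other subunit, Rrm2; the difference between the subunits was not tested.

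Other genes of the same processes came from lists that hold none of the 59. Those of the replication and mitosis lists were also lower more often than higher in STAT6-null cells. Over all tested genes 36.1% were lower and 34.9% higher. Of 42 other replication genes 27 were lower and 8 higher, led by Dck, the deoxycytidine salvage kinase (-1.20), and Gmnn, the inhibitor of Cdt1 (-1.15). Of 42 other mitosis genes 39 were lower and 2 higher, led by Pttg1, which encodes securin (-1.25), and Cdc25b, the phosphatase that activates CDK1 (-1.15). The 35 other G1 and quiescence genes had a median log2 fold change of -0.04, against -0.01 over all tested genes. Of them 16 were lower and 9 higher, with Tfdp2, an E2F partner, at -1.11 and the transcription factor gene Foxo3 at -1.07. The count of lower genes was 43 to 49 when each library was left out in turn, and the call of Aurka (-0.33) was lost without STAT6-null replicate 1 (adjusted p = 0.13, limma), without WT replicate 1 (0.0914) and with quantile normalization (0.11).

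**Figure D3:**
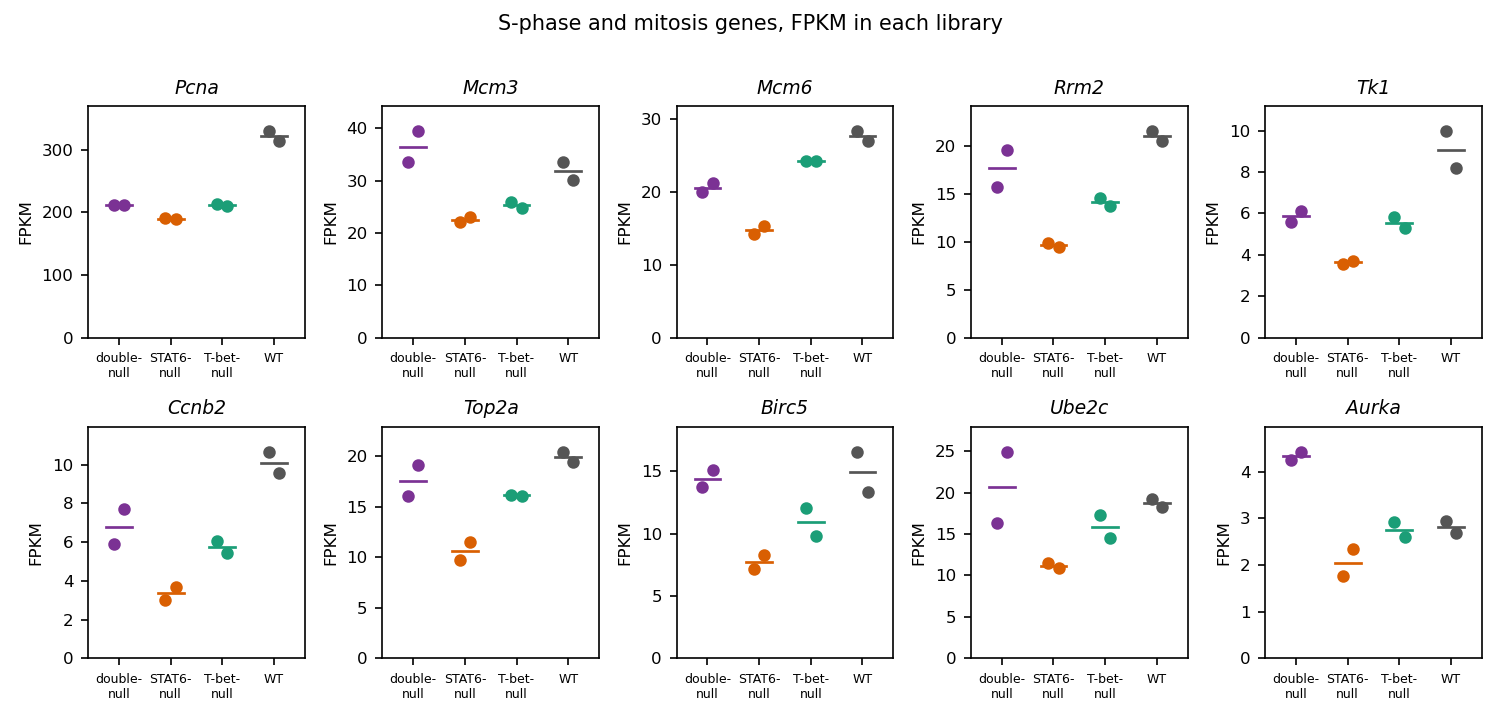
FPKM (y axis, from 0) of 5 S-phase genes (top row) and 5 mitosis genes (bottom row) in each library; points are libraries, with replicate 1 left of replicate 2, and lines are means of 2. STAT6-null libraries are the lowest in each panel, WT libraries are highest for Pcna, Mcm6, Rrm2, Tk1, Ccnb2 and Top2a, and both double-null libraries are highest for Aurka.

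What did loss of T-bet alone do? In T-bet-null cells 42 of 58 genes were lower than in WT and 2 were higher, against 36.3% and 34.2% of all tested genes. S-phase genes were lower in 24 of 30 cases (median -0.35) and mitosis genes in 14 of 21 (median -0.28), with none higher and a median of -0.02 over all tested genes. Pold1, the catalytic subunit of polymerase delta, had 4.997 and 4.38 FPKM in T-bet-null libraries, against 8.94 and 8.55 in WT libraries (-0.78 ± 0.08, adjusted p = 2.88e-05, n = 2 per genotype). Lig1 and Cdt1, the licensing factor, both fell by 0.62. Pcna had 213 and 211 FPKM in T-bet-null libraries, against 330.3 and 314 in WT libraries (-0.60). In mitosis Ccnb2 had 6.09 and 5.46 FPKM in T-bet-null libraries, against 10.7 and 9.55 in WT libraries (-0.71 ± 0.12, adjusted p = 0.000747), and Nusap1 fell by 0.71 and Tpx2 by 0.50. Ube2c was not called (-0.23, adjusted p = 0.233).

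The other lists held falls and rises in T-bet-null cells, where 36.3% of all tested genes were lower and 34.2% higher. Of 42 other replication genes 25 were lower and 8 higher, with Dck at -0.92 and Orc2, of the origin recognition complex, at 0.91. Of 42 other mitosis genes 28 were lower and 1 higher, with Cdc25b at -1.03 and Pttg1 at -0.80. Of 35 other G1 and quiescence genes 18 were lower and 10 higher, led by Btg2, an antiproliferative gene (-1.19), and Foxo3 (-0.94). Without WT replicate 1 the number of lower genes among the 59 was 27. The calls of Mcm3 (-0.31), Birc5 (-0.42) and Top2a (-0.29) were then lost (adjusted p = 0.0645, 0.106 and 0.0961, limma), as they were without T-bet-null replicate 2 (0.0536, 0.104 and 0.0729), and that of Top2a also without T-bet-null replicate 1 (0.0668).

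How did double-null cells differ from WT? In double-null cells 27 of 58 genes were lower than in WT and 7 higher, against 36.7% and 36.3% of all tested genes. S-phase genes were lower in 19 of 30 cases and higher in 1 (median -0.26). Mitosis genes were lower in 6 of 21 and higher in 3, with a median of -0.04 against 0.00 over all tested genes, and 12 were not called. Cdk2, the kinase of cyclins E and A, had 5.11 and 5.29 FPKM in double-null libraries, against 9.78 and 8.25 in WT libraries (-0.69 ± 0.09, adjusted p = 0.000115, n = 2 per genotype). Pold1 fell by 0.63 and Rfc4, a clamp loader subunit, by 0.62. Pcna had 212 and 211 FPKM in double-null libraries, against 330.3 and 314 in WT libraries (-0.60). Rrm1 had 25.2 and 27.4 FPKM in double-null libraries, against 26.6 and 25.9 in WT libraries, and its groups overlapped (0.00, 95% interval -0.13 to 0.13).

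Aurka, the Aurora A kinase of the spindle poles, was called higher than WT in double-null and lower in STAT6-null cells, the latter a call lost in 3 of 14 alternatives. It had 4.25 and 4.43 FPKM in double-null, 1.76 and 2.34 in STAT6-null, 2.91 and 2.60 in T-bet-null and 2.95 and 2.69 in WT libraries. The double-null libraries were thus the highest of the 8 and the STAT6-null the lowest. It was higher in double-null cells than in WT (0.48 ± 0.10, adjusted p = 0.00217, n = 2 per genotype). The Polo kinase gene Plk1 (0.45) was also called higher there, as were Foxm1, the factor that drives mitotic genes (0.34), and Ccne2, which encodes cyclin E2 (0.34), the last 2 named after their values were seen. Ccnb2 stayed lower in double-null cells, with 5.89 and 7.73 FPKM, against 10.7 and 9.55 in WT libraries (-0.52).

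For the other lists in double-null cells against WT, the shares over all tested genes were 36.7% lower and 36.3% higher. Of 42 other replication genes 15 were lower and 10 higher, with Pole3, an accessory subunit of polymerase epsilon, at 1.16 and Dck at -1.06. Of 42 other mitosis genes 17 were lower and 4 higher, with Pttg1 at -0.87 and Cdc25b at -0.64. Of 35 other G1 and quiescence genes 14 were lower and 11 higher, and the neighbouring inhibitor genes Cdkn2a and Cdkn2b rose most. Cdkn2a, which encodes p16 and ARF, had 5.83 and 7.92 FPKM in double-null, 2.67 and 3.66 in STAT6-null, 1.81 and 1.74 in T-bet-null and 1.25 and 0.974 in WT libraries (double-null against WT 1.89 ± 0.15, adjusted p = 4.43e-06). Cdkn2b, which encodes p15, had 4.95 and 5.95, 2.89 and 3.21, and 2.42 and 2.50 FPKM in the mutants in the same order, against 1.49 and 1.40 in WT (1.40). Both genes stood in the order double-null, STAT6-null, T-bet-null and WT without overlap. Among the 59 genes, 14 were higher and 16 lower without double-null replicate 1, 3 were higher and 32 lower without double-null replicate 2, and 17 were lower without WT replicate 1. With a filter of 5 FPKM 4 were higher, and the calls of Plk1, Foxm1 and Ccne2 were lost without double-null replicate 2 (adjusted p = 0.072, 0.0728 and 0.0793, limma), those of Plk1, Ccne2 and Rfc4 without WT replicate 1 (0.0756, 0.116 and 0.0554).

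The 3 comparisons with WT share the WT libraries, and in each the helper T cell, myeloid and erythroid marker sums were also lower in the mutant than in WT libraries. Single helper T cell and myeloid markers went both ways. Of 9 helper T cell markers 7 had a log2 fold change below 0 and 2 above 0 in each comparison. Of 6 myeloid markers 4, 3 and 4 were below 0 and 2, 3 and 2 above 0 in double-null, STAT6-null and T-bet-null cells. Of the 58 genes, 26 were called lower and 2, Ccnd2 and Cdk6, higher in all 3 mutants, against 27.2% and 27.0% of all tested genes. Fen1, which trims Okazaki fragments, and Rfc3, a clamp loader subunit, were called in none, and both are named for that after their values were seen. The share of all tested genes called in none was not counted. Cenpf, a kinetochore gene, was not tested, with 0.572 and 0.737 FPKM in double-null, 0.406 and 0.554 in STAT6-null, 0.638 and 0.776 in T-bet-null and 0.847 and 0.827 in WT libraries.

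Double-null cells were compared with STAT6-null cells to ask what T-bet loss adds where STAT6 is already absent. In double-null cells 39 of 58 genes were higher than in STAT6-null cells and 1 lower, against 11.3% and 8.63% of all tested genes. Mitosis genes were higher in 19 of 21 cases (median 0.67) and S-phase genes in 19 of 30 (median 0.35), where the median over all tested genes was 0.01. Ccnb2 had 5.89 and 7.73 FPKM in double-null libraries, against 3.04 and 3.69 in STAT6-null libraries (0.83 ± 0.12, adjusted p = 0.00242, n = 2 per genotype). Birc5 had 13.7 and 15.1 FPKM in double-null libraries, against 7.18 and 8.29 in STAT6-null libraries (0.82 ± 0.12, adjusted p = 0.00261), and Aurka differed by 0.81. For these 3 genes each double-null library was above each STAT6-null library. In S phase the largest differences were those of Rrm2 (15.7 and 19.5 FPKM in double-null, against 9.87 and 9.42 in STAT6-null libraries, 0.80), Gins2 (0.78) and Gins1 (0.67), both of the GINS complex of the helicase. Mcm3 had 33.5 and 39.5 FPKM in double-null libraries, against 22.0 and 23.1 in STAT6-null libraries (0.67 ± 0.08, adjusted p = 0.00109). Pcna did not pass (0.15, adjusted p = 0.0653).

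The single gene called lower in double-null than in STAT6-null cells was Cdt1, with 20.5 and 18.8 FPKM in double-null libraries, against 25.2 and 22.8 in STAT6-null libraries (-0.27 ± 0.08, adjusted p = 0.0473). Its inhibitor Gmnn went the other way (0.76), beside Asf1b, a histone chaperone (0.70). Of 42 other replication genes 18 were higher and 1 lower, against 11.3% and 8.63% of all tested genes. Of 42 other mitosis genes 35 were higher and 0 lower, led by the chromosome motor Kif22 (0.88) and by Cdca8, which encodes borealin (0.78). Of 35 other G1 and quiescence genes 8 were higher and 3 lower, led by Cdkn2a (0.92) and Cdkn2b (0.67). Helper T cell, myeloid and B cell marker sums were lower in double-null than in STAT6-null libraries, as given above, and erythroid sums overlapped. The higher genes among the 59 numbered 42 without double-null replicate 1, 27 when replicate 2 of that genotype was left out and 21 without STAT6-null replicate 1, and the call of Cdt1 was lost in 6 of 14 alternatives (adjusted p = 0.053 to 0.256, limma). The calls of Gins1 (3 of 14, 0.0566 to 0.0959) and Ube2c (0.80; 2 of 14, 0.0539 to 0.0616) were lost in some of them.

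**Figure D4:**
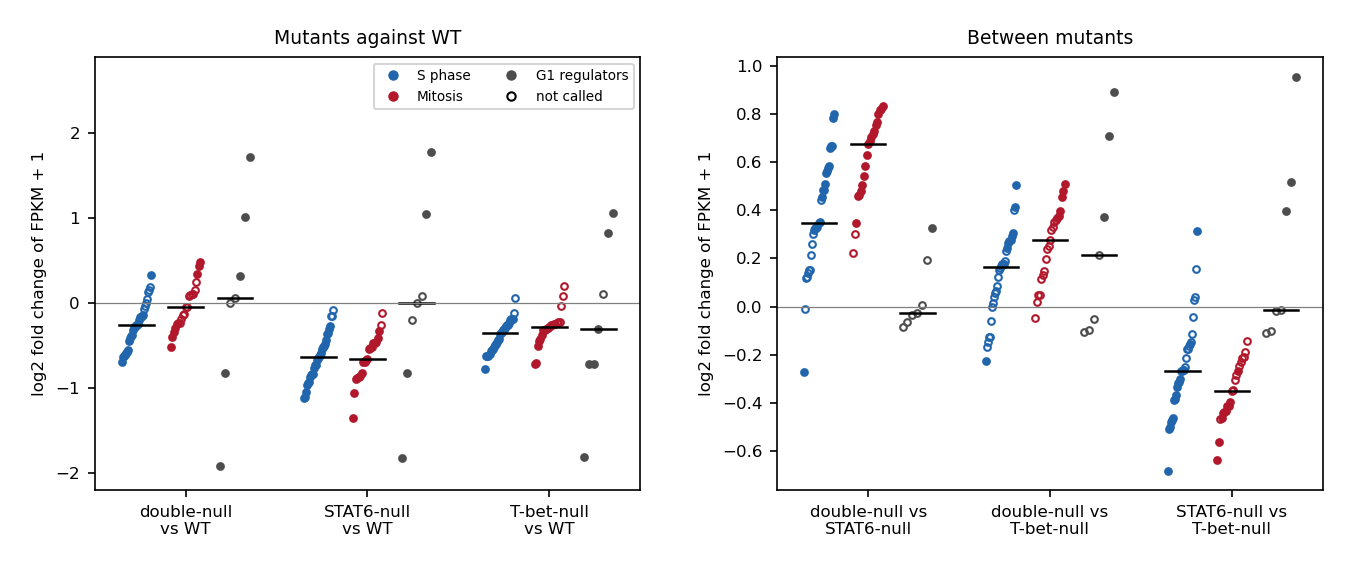
Log2 fold change of FPKM + 1 (y axes, on different scales in the 2 panels) of each tested gene, by group; filled points are called, open points are not, and bars are group medians. The median of mitosis genes is -0.66 in STAT6-null against WT, -0.04 in double-null against WT and 0.67 in double-null against STAT6-null cells.

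Double-null cells were compared with T-bet-null cells to ask what STAT6 loss adds where T-bet is already absent, and here 16 of 58 genes were higher and 1 lower, against 16.4% and 16.2% of all tested genes. S-phase genes were higher in 7 of 30 cases (median 0.16) and mitosis genes in 6 of 21 (median 0.28). Mcm3 had 33.5 and 39.5 FPKM in double-null libraries, against 26.0 and 24.8 in T-bet-null libraries (0.50 ± 0.08, adjusted p = 0.0027, n = 2 per genotype). Gins2 (0.41) and Rrm1 (0.31) followed in S phase, and Aurka (0.51), Cdc20 (0.48) and Ccna2, which encodes cyclin A2 (0.45), led in mitosis. Mcm6, of the same helicase ring as Mcm3, was the one gene called lower, with 20.0 and 21.2 FPKM in double-null libraries, against 24.2 and 24.3 in T-bet-null libraries (-0.23 ± 0.06, adjusted p = 0.021). Pcna gave 0.00 (95% interval -0.12 to 0.11).

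Against T-bet-null cells, 4 of 42 other replication genes were higher and 0 lower in double-null cells, with Pole3 at 0.53 and Asf1b at 0.42. The shares over all tested genes were 16.4% higher and 16.2% lower. Of 42 other mitosis genes 13 were higher and 1 lower, led by Racgap1, which acts in cytokinesis (0.69), and Cks2, a CDK-binding protein (0.53). Of 35 other G1 and quiescence genes 9 were higher and 5 lower, with Cdkn2a at 1.49 and Cdkn2b at 0.89. The number of higher genes among the 59 rested on single libraries: it was 29 without double-null replicate 1, 6 without double-null replicate 2, 9 without T-bet-null replicate 1 and 5 without T-bet-null replicate 2. The calls of Mcm6 and Cdc20 were each lost in 3 of 14 alternatives (adjusted p = 0.0773 to 0.108 and 0.0807 to 0.13, limma), that of Gins2 in 2 (0.112 to 0.135) and that of Aurka in 1 (0.0504).

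Set directly against each other, STAT6-null cells had 24 of 58 genes lower and 4 higher than T-bet-null cells, against 14.9% and 12.3% of all tested genes. S-phase genes were lower in 14 of 30 cases and higher in 1 (median -0.27), and mitosis genes lower in 10 of 21 with none higher (median -0.35), where all tested genes had a median of -0.03. Mcm6 (chr 1, 128331575-128359705) had 14.2 and 15.3 FPKM in STAT6-null libraries, against 24.2 and 24.3 in T-bet-null libraries (-0.68 ± 0.06, adjusted p = 8.11e-05, n = 2 per genotype). It was the largest difference among S-phase genes, followed by Rrm2 (-0.51) and Tk1 (-0.50). In mitosis Ccnb2 had 3.04 and 3.69 FPKM in STAT6-null libraries, against 6.09 and 5.46 in T-bet-null libraries (-0.64 ± 0.12, adjusted p = 0.00557), followed by Top2a (-0.56) and Plk1 (-0.46). Cdt1 was the S-phase gene called higher in STAT6-null cells, with 25.2 and 22.8 FPKM, against 20.4 and 17.9 in T-bet-null libraries (0.31).

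Of 42 other replication genes 12 were lower and 0 higher in STAT6-null than in T-bet-null cells, with Timeless, a fork protection gene, at -0.64 and Gmnn at -0.57. The shares over all tested genes were 14.9% lower and 12.3% higher. Of 42 other mitosis genes 16 were lower and 1 higher, with Kif22 at -0.63 and the chromatin gene Hmgb2 at -0.53. Of 35 other G1 and quiescence genes 6 were lower and 7 higher, with Gadd45g, a stress-response gene, at 0.75 and Wee1, the kinase that restrains CDK1, at -0.59. The helper T cell, myeloid and B cell marker sums were higher and the erythroid sum lower in STAT6-null than in T-bet-null libraries, as given above. The lower genes among the 59 numbered 9 without STAT6-null replicate 1, 15 without STAT6-null replicate 2, 9 without T-bet-null replicate 1 and 10 without T-bet-null replicate 2, and the higher ones 2 without T-bet-null replicate 2. The calls of Plk1 (4 of 14 alternatives, adjusted p = 0.0657 to 0.134, limma), Cdt1 (2 of 14, 0.141 to 0.161) and Pcna (-0.16; 6 of 14, 0.0522 to 0.219) were lost in some of them.

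The interaction asks whether the effect of STAT6 loss differs between cells without and with T-bet. It is double-null minus T-bet-null, minus the difference of STAT6-null and WT. It was called positive for 54 of 58 genes and negative for 2, against 29.6% and 27.7% of all tested genes. All 21 tested mitosis genes (median 0.95) and 29 of 30 S-phase genes (median 0.73) were called positive, where all tested genes had a median of 0.01. Ccnb2 had 1.55 ± 0.17 (adjusted p = 0.000138, n = 2 per genotype), Nusap1 1.42 and Tpx2 1.25. Rrm2 had 1.34 ± 0.13 (adjusted p = 7.15e-05), Lig1 1.28 and Gins2 1.26. Thus Rrm2 was 1.05 lower in STAT6-null than in WT cells, and 0.29 higher in double-null cells than in those without T-bet alone. The second of these values was 0.14 without double-null replicate 2 (adjusted p = 0.209, limma), and its call was lost in 8 of 14 alternatives (0.0533 to 0.209). The S-phase gene without a call was Rfc3, at 0.31 (adjusted p = 0.0522). A change shared by all 3 mutants against WT enters the interaction with the opposite sign, so an offset of the WT libraries cannot be told apart from it. The comparison of double-null with T-bet-null cells, which has no WT library in it, gave 16 genes higher and 1 lower. The shares over all tested genes were 16.4% and 16.2% there, and the number of higher genes rested on single libraries, as given above.

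In the other lists 26 of 42 replication genes were called positive and 6 negative in the interaction, with Asf1b at 1.37 and Gmnn at 1.34. The shares over all tested genes were 29.6% positive and 27.7% negative. Of 42 mitosis genes 38 were called positive and 0 negative, with Cdc25b at 1.55 and Cdca3, which acts at mitotic entry, at 1.36. Of 35 G1 and quiescence genes 14 were called positive and 7 negative, with Rbl2, the p130 protein of the DREAM complex, at 1.13 and Tfdp2 at 0.97. Rbl2 had 16.6 and 19.8 FPKM in double-null, 12.6 and 13.6 in STAT6-null, 10.8 and 10.7 in T-bet-null and 18.4 and 17.7 in WT libraries. Leaving out each library in turn gave 47 to 53 genes called positive among the 59.

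The 7 G1 regulators had calls in both directions. Against WT, 3 were higher and 2 lower in double-null and 2 higher and 2 lower in STAT6-null cells. In T-bet-null cells 2 were higher and 4 lower. Over all tested genes the shares were, in the same order, 36.3% higher and 36.7% lower, 34.9% and 36.1%, and 34.2% and 36.3%. Whether these counts differ from those shares was not tested. Ccnd2, which encodes cyclin D2 and was the most abundant of them (chr 6, 127125162-127152188), had 258 and 236 FPKM in double-null, 256 and 250.2 in STAT6-null, 255 and 256 in T-bet-null and 111 and 133 in WT libraries. Ccnd3, which encodes cyclin D3 (chr 17, 47505051-47599689), had 7.58 and 7.16 FPKM in double-null, 9.23 and 6.72 in STAT6-null, 7.998 and 7.999 in T-bet-null and 31.7 and 29.3 in WT libraries. The D-type cyclins thus went opposite ways, and for both every mutant library was on the same side of both WT libraries. Ccnd2 rose by 1.02, 1.05 and 1.07 in double-null, STAT6-null and T-bet-null cells (adjusted p = 6.46e-06, 6.44e-06 and 6.82e-06, limma). Ccnd3 fell by 1.91, 1.83 and 1.81 in that order (adjusted p = 9.42e-07, 1.71e-06 and 2.27e-06, limma), the largest change of the 58 tested genes in each of these comparisons. No comparison between mutants called either gene.

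Cdk6 (chr 5, 3341004-3531008), a kinase partner of the D-type cyclins, was graded. It had 21.6 and 25.3 FPKM in double-null, 25.7 and 23.4 in STAT6-null, 12.6 and 11.7 in T-bet-null and 6.11 and 6.73 in WT libraries. The 4 libraries without STAT6 were the highest, the T-bet-null libraries lay between, and the WT libraries were the lowest. Against WT it was 1.72 ± 0.09 in double-null, 1.78 in STAT6-null and 0.83 in T-bet-null cells (adjusted p = 4.03e-07, 5.03e-07 and 4.04e-05, limma). Double-null cells exceeded T-bet-null cells by 0.89 (adjusted p = 0.000204) and STAT6-null cells exceeded T-bet-null cells by 0.95 (adjusted p = 0.000109), while double-null and STAT6-null cells differed by -0.06 (95% interval -0.26 to 0.14). Cdk4, the other kinase partner (chr 10, 127063535-127067288), had 51.1 and 60.8 FPKM in double-null, 43.2 and 45.5 in STAT6-null, 47.6 and 48.2 in T-bet-null and 47.6 and 41.3 in WT libraries. The double-null libraries were the 2 highest, and Cdk4 was called higher in double-null than in WT (0.32, adjusted p = 0.00988) and STAT6-null cells (0.32, adjusted p = 0.0365). Those calls were lost in 2 of 14 alternatives (adjusted p = 0.0667 to 0.0773, limma) and 6 of 14 (0.0556 to 0.183).

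The inhibitors fell into separate patterns. Cdkn1b, which encodes p27, a brake of resting T cells (chr 6, 134920401-134925525), had 26.9 and 27.5 FPKM in double-null, 27.3 and 26.8 in STAT6-null, 29.2 and 29.1 in T-bet-null and 49.9 and 47.2 in WT libraries. It fell by 0.81, 0.82 and 0.72 in double-null, STAT6-null and T-bet-null cells against WT, with no call between mutants. Cdkn1a, which encodes p21 (chr 17, 29090979-29100722), had 75.0 and 81.5 FPKM in double-null, 83.0 and 76.3 in STAT6-null, 60.0 and 60.4 in T-bet-null and 79.3 and 70.2 in WT libraries. Its T-bet-null libraries were the 2 lowest, and the other 3 genotypes overlapped. It was lower in T-bet-null than in WT cells (-0.31, adjusted p = 0.00511), and higher in double-null (0.37, adjusted p = 0.00609) and STAT6-null (0.40, adjusted p = 0.00461) than in T-bet-null cells. Cdkn2c, which encodes p18 (chr 4, 109660876-109666756), had 4.69 and 5.77 FPKM in double-null, 3.46 and 5.60 in STAT6-null, 2.80 and 2.79 in T-bet-null and 4.94 and 5.48 in WT libraries. It was likewise lowest in T-bet-null libraries (-0.71 against WT, adjusted p = 0.004) and higher in double-null (0.71) and STAT6-null cells (0.52) than there, calls lost in 3 (adjusted p = 0.0516 to 0.0767, limma) and 6 (0.0525 to 0.236) of 14 alternatives.

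**Figure D5:**
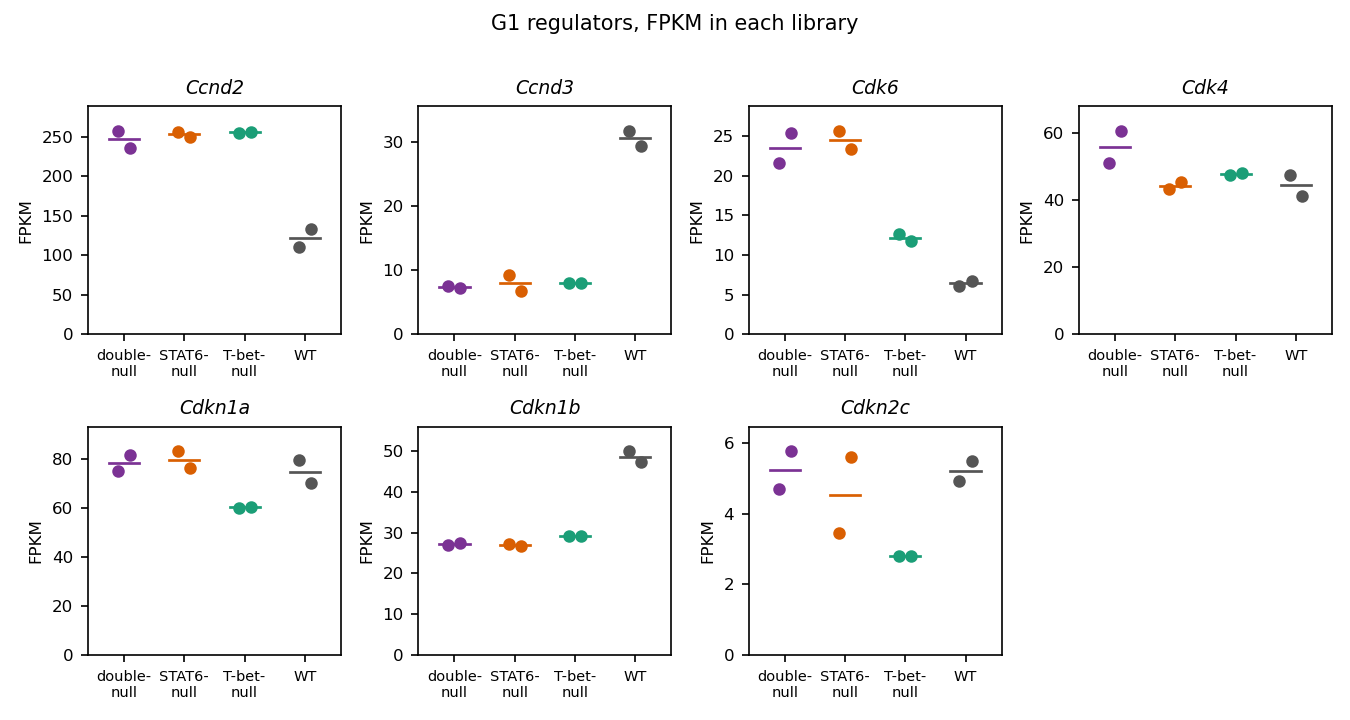
FPKM (y axis, from 0) of the 7 G1 regulators in each library; points are libraries, with replicate 1 left of replicate 2, and lines are means of 2. Ccnd2 is higher and Ccnd3 and Cdkn1b are lower in all 6 mutant libraries than in both WT libraries, Cdk6 is highest in the 4 libraries without STAT6, and Cdkn1a and Cdkn2c are lowest in the T-bet-null libraries.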

How the data were processed

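RNA-seq libraries of 4 genotypes with 2 libraries each were used as the authors deposited them: gene-level FPKM made with Cufflinks on mm10, per the submitters' processing notes, with RefSeq genes, per the table's own name. For the aligner, versions and strandedness, not given in the sources used here, nothing is assumed, and reads of overlapping and antisense genes cannot be told apart. The lowest deposited value was 0.1 FPKM, and a gene without a line has no value here. Where a symbol had more than 1 line (43 symbols), that of highest mean was kept, which set aside 65 lines. No count test was run, since most values did not fall on steps of whole fragments.

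Genes with at least 1 FPKM in at least 2 libraries were fitted on log2(FPKM + 1) with limma 3.58.1 in R 4.3.3 (trend, 1 fit of all 8 libraries, 4 residual degrees of freedom, two-sided tests, Benjamini-Hochberg adjustment within each of 7 comparisons, checked on simulated data). The scale understates the change of low genes, and errors are SE, with n = 2 per genotype. Alternatives were a pseudocount of 0.1, no filter, a filter of 5 FPKM, median-of-ratios scaling, quantile normalization, a replicate block and leaving out each of 8 libraries, 14 in all. Relative depth, 0.856 to 1.04 of WT replicate 1, was read from the steps of 507 genes below 0.5 FPKM (log2 tolerance 0.001), of which 129 to 160 fell on steps in each of the other libraries. Motifs and figures used Python 3.11.15, pandas 2.3.3 and matplotlib 3.10.9. Gene and promoter positions are from RefSeq GRCm38.p6, count from 1, and gene spans include introns.

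The genes and lists were chosen with earlier results of these data known. Named genes are the 3 of highest mean FPKM in each group, the 3 S-phase and 3 mitosis genes with the largest called change in each comparison, all 7 G1 regulators, genes called in opposite directions against WT, the 2 largest called changes of each other list and comparison, and the targeted genes. For 1 list of markers, part of its symbols is not reported here.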

Additional observations from a re-analysis of the deposited data

Results flagged for a closer look

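The interaction test in limma called 54 genes positive and 2 negative of the 58 tested, against 29.6% and 27.7% of all tested genes. For these calls, a STAT6 effect that differs with T-bet cannot be told apart from an offset of the WT libraries. The largest interaction values in S phase were those of Rrm2 (1.34), Lig1 (1.28) and Gins2 (1.26). In mitosis they were those of Ccnb2 (1.55), Nusap1 (1.42) and Tpx2 (1.25). Of the G1 regulators, Ccnd3 (1.72), Cdkn2c (0.90), Cdkn1b (0.73) and Cdkn1a (0.28) were positive and Ccnd2 (-1.10) and Cdk6 (-0.89) negative. The call of Cdkn1a was lost in 7 of 14 alternatives (adjusted p = 0.0571 to 0.153). For Ccnd2, Ccnd3 and Cdkn1b the mutants differed from WT and not from each other by any call, which gives an interaction by its construction. Groups of 2 libraries are too small for a test of outlying libraries.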

How the results depend on the processing

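Of 269 calls of the 59 genes in the 7 comparisons, 171 held under each of the 14 alternatives that gave a value (genes below a filter of 5 FPKM gave none there); 353 of 3692 recomputed values lost their call and 0 changed direction. With all libraries kept, 3 counts changed by more than 1.5 times: 4 genes were higher in double-null than WT cells with a filter of 5 FPKM (7 as reported), 2 lower in double-null than T-bet-null cells with quantile normalization (1 as reported) and 0 lower in double-null than STAT6-null cells with no filter (1 as reported). Below that, the filter of 5 FPKM, which tests fewer genes, gave 38 positive in the interaction (54 as reported), 33 lower in STAT6-null than WT cells (48) and 27 higher in double-null than STAT6-null cells (39), and quantile normalization 22 higher in double-null than T-bet-null cells (16). Leaving out each library gave, for T-bet-null against WT, 2 higher in each case and 27 to 46 lower; for STAT6-null against WT, 2 higher and 43 to 49 lower; and for double-null against WT, 3 to 14 higher and 16 to 32 lower. It gave 5 to 29 higher and 0 to 1 lower for double-null against T-bet-null, 21 to 42 and 0 to 1 for double-null against STAT6-null, 2 to 4 and 9 to 30 for STAT6-null against T-bet-null, and 47 to 53 and 2 for the interaction. Over all genes tested, calls ranged from 1631 to 3308 for double-null against T-bet-null (3351 with all libraries), 840 to 2074 for double-null against STAT6-null (2044) and 1443 to 3084 for STAT6-null against T-bet-null (2799). A lone library left in a genotype is assumed to vary like the others, and the cause of these moves was not tested. Same-numbered libraries deviated together with r of -0.0899 to 0.0907, so the numbers were not read as pairs; with a replicate block the members higher and lower were 2 and 39, 2 and 48, 7 and 24, 15 and 1, 39 and 1, 4 and 21, and 53 and 2, for T-bet-null against WT, STAT6-null against WT, double-null against WT, double-null against T-bet-null, double-null against STAT6-null, STAT6-null against T-bet-null and the interaction. Neither scaling moved the median of all genes by more than 0.03 on the log2 scale. The depth is not printed, so no counting interval is given.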
